A study of Homo sapiens with 29 samples.

Results

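Micronucleated (MN+) and non-micronucleated (MN-) RPE1 cells were compared after the same drug treatment, which asks how the transcriptome differs between cells that carry a micronucleus and neighbours that do not. The comparison holds the 4 MN+ and 4 MN- libraries of 1 count table, 8 of the 22 libraries in the series and 11 of its 29 labelled samples, since parts of some libraries were labelled apart. RPE1 (hTERT RPE-1) is an epithelial line of the human retina made immortal with telomerase, here a sorted population carrying lentiviral H2B-emiRFP703 and a photoconvertible nuclear Dendra2. Every cell in the comparison, MN- cells included, had received BAY1217389 (100 nM, 24 h), an inhibitor of the spindle checkpoint kinase Mps1 (Mps1i), and in the study's methods the Cdk1 inhibitor RO-3306 shortly before imaging. A classifier sorted live cells by image into MN+ and MN-, each class was marked by a UV pulse of its own length, and the marked cells were collected by flow cytometry. The sorted groups are therefore enriched for their class rather than pure.

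In each of 2 experiments 1 well gave MN+ cells the 200 ms pulse and MN- cells the 800 ms pulse, and a second well reversed the pulses, so that each well yielded 1 MN+ and 1 MN- library. The wells are numbered here 1 and 2 (experiment 1) and 3 and 4 (experiment 2), with MN+ cells at 200 ms in wells 1 and 3. Within a well, condition and pulse length cannot be told apart, and the reversal balances them over the wells of an experiment. The 4 wells are the replicates, and p-values measure the spread between these wells only.

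A micronucleus is a small nuclear compartment that forms around a chromosome or chromosome fragment left outside the main nucleus at the end of mitosis. Its envelope is fragile and often ruptures, which exposes its DNA to the cytosol, where the sensor cGAS can signal through STING1 to interferon genes. Chromosome missegregation also stabilises p53 and alters gene dosage, and cells with abnormal chromosome content are known for stress and inflammatory gene programmes.

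The libraries held 47919780 to 136865912 estimated counts over 10594 genes, and all the genes in the table had at least 700 counts in at least 2 libraries. The MN- library of well 4 (62831160) was the shallowest of experiment 2, and its MN+ partner held 116934561. Principal component 1 of the 500 most variable genes carried 61.6% of the variance, of which 90.5% lay between experiments and 0.795% between MN+ and MN-. Component 2 carried 14.6%, of which 41.3% lay between MN+ and MN-. All 8 RPE1 line markers were present, at 9320 to 10118 summed CPM (counts scaled to a common library total) in MN- libraries and 9375 to 9687 in MN+ libraries, and none of the blood or neural and embryonic kidney markers was in the table. Of 8 fibroblast markers PDGFRB, COL1A1, TWIST1 and FAP were present, at 87.4 to 108 summed CPM over all libraries. Of 8 markers of cervical and osteosarcoma lines CDKN2A, RUNX2 and SPP1 were present, at 163 to 234 summed CPM. Of 14 genes of differentiated pigment epithelium only MITF, OTX2 and RDH5 were present, and none of the marker genes passed the test of MN+ against MN- cells given below. The gene for cGAS was not in the table either, so its level could not be measured here.

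EGR1, an immediate early transcription factor, and TNFAIP3, the A20 enzyme that restrains NF-kB signalling, were the annotated genes with the smallest p in MN+ cells, and both were higher in 4 of 4 wells. Promoter sequences of EGR1, TNFAIP3, FILIP1L and CXCL8 are shown because the results turn on these genes. The lines give the 250 bases before 1 RefSeq start site of each gene (GRCh38.p14), 5′ to 3′ on the gene's strand. Capitals mark the CArG boxes, bound by serum response factor, in EGR1 and FILIP1L. In TNFAIP3 they mark NF-kB sites, and in CXCL8 the AP-1 motif TGACTCA. Only 1 kind of motif was marked in each gene, so lower case does not mean that other sites are absent.
EGR1 (chr5:138465229-138465478, + strand): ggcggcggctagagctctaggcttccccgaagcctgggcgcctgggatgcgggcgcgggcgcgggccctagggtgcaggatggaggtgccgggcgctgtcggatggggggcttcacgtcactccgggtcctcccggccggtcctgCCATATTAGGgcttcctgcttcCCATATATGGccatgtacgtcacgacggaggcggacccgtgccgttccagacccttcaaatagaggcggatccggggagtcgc
FILIP1L (chr3:99876174-99876423, - strand): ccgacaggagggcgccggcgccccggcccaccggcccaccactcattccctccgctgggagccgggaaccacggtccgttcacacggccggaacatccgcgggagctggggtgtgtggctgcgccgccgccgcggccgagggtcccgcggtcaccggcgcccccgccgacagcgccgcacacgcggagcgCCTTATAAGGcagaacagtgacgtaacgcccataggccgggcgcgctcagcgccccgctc
TNFAIP3 (chr6:137867009-137867258, + strand): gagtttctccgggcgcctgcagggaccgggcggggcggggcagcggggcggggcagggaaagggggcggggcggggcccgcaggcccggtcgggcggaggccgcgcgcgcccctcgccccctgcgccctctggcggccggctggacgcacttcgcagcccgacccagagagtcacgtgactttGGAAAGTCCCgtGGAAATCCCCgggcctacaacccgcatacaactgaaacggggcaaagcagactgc
CXCL8 (chr4:73740319-73740568, + strand): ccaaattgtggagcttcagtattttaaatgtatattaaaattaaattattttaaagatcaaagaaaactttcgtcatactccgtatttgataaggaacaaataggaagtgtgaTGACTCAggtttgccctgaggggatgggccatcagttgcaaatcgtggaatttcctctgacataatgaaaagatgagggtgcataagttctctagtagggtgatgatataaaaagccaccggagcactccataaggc
These windows were chosen after their motifs were seen, and a match in either strand is a description of letters, not evidence of binding. Of 27305 genes with such a window, 1.44% had a CArG box in at least 1 of them, 11.8% an NF-kB site and 5.19% the TGACTCA motif. Of 22 annotated genes past the threshold with a window, 3, 5 and 4 had them.

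For EGR1 (chromosome 5, 138465479 to 138469303) the MN- libraries of wells 1 to 4 held 24.1, 18.3, 16.6 and 17.4 CPM. The MN+ libraries held 43.4, 35.1, 24.9 and 42.4 CPM. All the MN+ values lay above all the MN- values, with means of 36.4 ± 8.55 and 19.1 ± 3.41 CPM (SD, n = 4 each). The log2 fold change was 0.91 ± 0.10 (SE), with an adjusted p of 0.00092 by edgeR's quasi-likelihood test with the well as block and Benjamini-Hochberg adjustment. EGR1 passed the same test without any 1 of the wells, and it missed it with the experiment as block and with no block.

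TNFAIP3 (chromosome 6, 137867214 to 137883314) stood at 9.51, 7.55, 15.4 and 15.4 CPM in MN- cells of wells 1 to 4. It stood at 18.1, 18, 24.9 and 28.6 CPM in MN+ cells. Levels were higher in experiment 2 than in experiment 1 in both conditions, and no MN+ library was as low as any MN- library. The fitted log2 fold change was 0.93 ± 0.09 (edgeR's quasi-likelihood test, adjusted p = 0.000763). Like EGR1 it passed without any 1 well, and only the fit with no block lost it. FILIP1L, which encodes a filamin A interacting protein, held 17.3, 14.2, 17.7 and 18.9 CPM in MN- cells and 29.9, 24.2, 25.5 and 26 CPM in MN+ cells. The groups did not overlap, the log2 fold change was 0.63 ± 0.08 and the adjusted p 0.00458. The gene missed the threshold without well 1.

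CXCL8, the neutrophil chemokine interleukin-8, held 15.9, 19.2, 24.2 and 27.1 CPM in MN- cells. In MN+ cells it held 29.1, 23.1, 43.5 and 34.6 CPM. Its groups overlapped, because the MN+ library of well 2 was below both MN- libraries of experiment 2, but the MN+ member was higher in 4 of 4 wells. The log2 fold change was 0.58 ± 0.10 (edgeR's quasi-likelihood test, adjusted p = 0.0396), and the gene missed the threshold without well 1 or well 4.

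**Figure D1:**
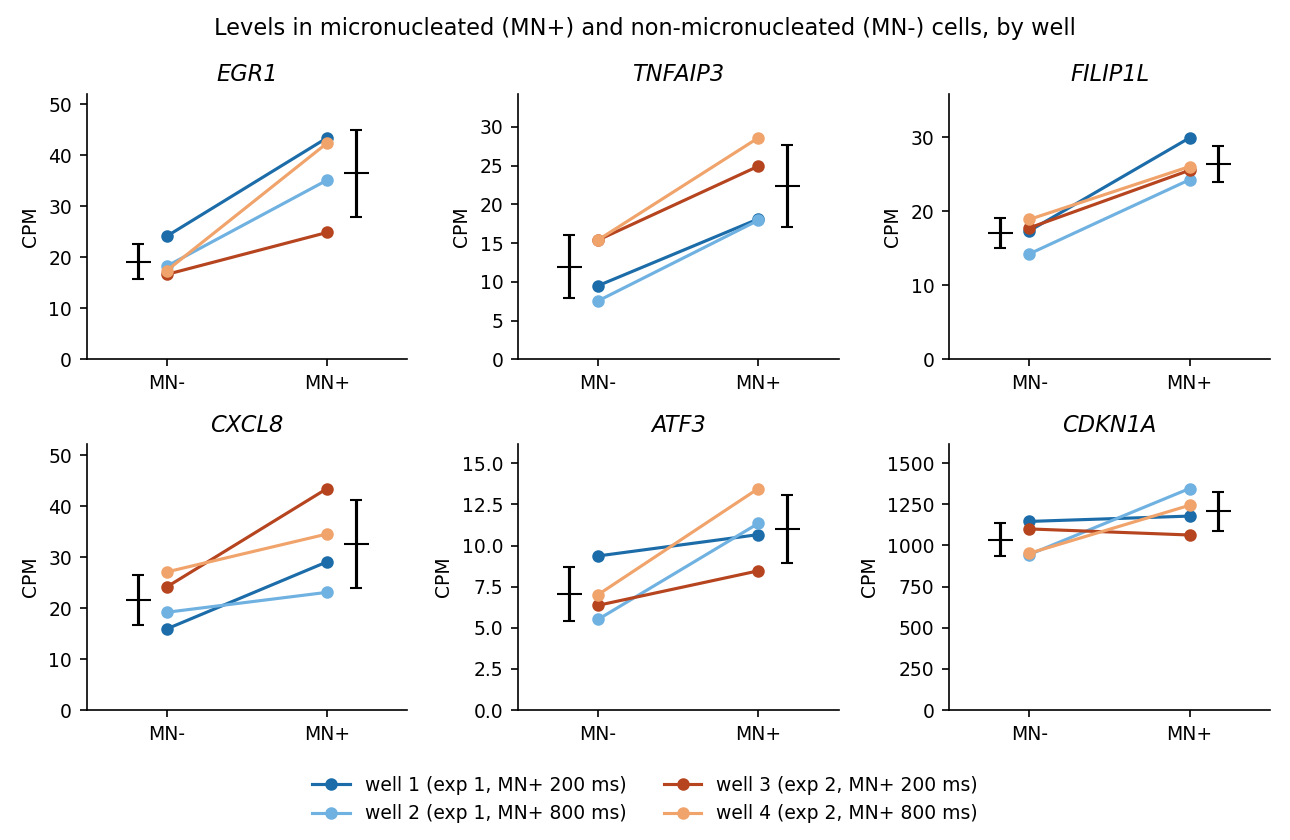
Levels of 6 genes in CPM (vertical axis, from 0) in MN- and MN+ libraries, with 1 line for each of the 4 wells and the mean ± SD of each group in black. EGR1, TNFAIP3, FILIP1L, CXCL8 and ATF3 rise along all 4 lines, while CDKN1A falls slightly in well 3.

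Across the table, 35 of 10594 genes passed the threshold of an adjusted p under 0.05, or 0.33% of those tested. Of these, 34 were higher in MN+ cells (0.321%) and 1 was lower (0.00944%), and 12 changed by more than 1.5-fold. At an unadjusted p under 0.05 the count was 2883 genes. Of the 35, 29 were genes of the primary annotation, all higher in MN+ cells, with log2 fold changes between 0.30 and 0.93 apart from DSEL. The difference had the same sign in all 4 wells for 32 of the 35, against 36% of all genes, and the libraries did not overlap for 15, against 5.57%. The number of calls depended strongly on 294 identifiers outside the primary annotation. With these left out, the same test called 428 of 10300 genes (4.16%), 270 higher (2.62%) and 158 lower (1.53%), and 16 of them by more than 1.5-fold. The 29 annotated genes were all among the 428. Giving this second test, called here the annotated-gene test, beside the first was a choice made after seeing the data. Without wells 1, 2, 3 and 4 it called 12, 34, 758 and 3 genes, so its calls rest on wells 1, 2 and 4. The 35 became 9, 8, 252 and 5.

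After EGR1 and TNFAIP3 the larger rises in annotated genes were in CREB5, a CRE-binding transcription factor (log2 fold change 0.69 ± 0.12, adjusted p = 0.0396), and HECW2, a ubiquitin ligase of the HECT family (0.69 ± 0.12, adjusted p = 0.0396). CREB5 held 7.02 to 11.2 CPM in MN- cells and 9.16 to 18.4 CPM in MN+ cells, which overlap. HECW2 held 6.15 to 8.07 and 10.2 to 12.5 CPM, which do not. Next came CD163L1, a scavenger receptor, at 3.90 to 5.03 CPM in MN- and 6.42 to 7.40 CPM in MN+ cells (0.65 ± 0.12, adjusted p = 0.0447). PLCXD2 held 8.47 to 13.5 and 15.5 to 21.4 CPM (0.61 ± 0.12, adjusted p = 0.0479). FLRT2, a membrane protein of cell adhesion and guidance, held 10.0 to 15.5 and 14.4 to 18.9 CPM (0.48 ± 0.09, adjusted p = 0.0442). These adjusted p-values are from edgeR's quasi-likelihood test, and all of these genes but CREB5 and FLRT2 had groups that did not overlap. Each of the 5 missed the threshold without well 1, well 2 or well 4, and kept it without well 3.

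DSEL, an enzyme-like protein of dermatan sulphate synthesis, had the largest fitted change of the annotated genes (log2 fold change 3.09 ± 0.60, adjusted p = 0.048 by edgeR's quasi-likelihood test). Its MN- libraries of wells 1 to 4 were listed at 9.35, 0, 8.36 and 0 CPM and its MN+ libraries at 40.1, 6.77, 26 and 11.6 CPM. Both libraries listed at 0 were MN- libraries of the 200 ms pulse, and a 0 in estimated counts can be a failed estimate. Its MN effect differed between the wells of each pulse arrangement (adjusted p = 3.56e-07), as did that of 11 genes in all (0.104% of 10594, 0.085% higher and 0.0189% lower in wells 2 and 4). Of the genes outside the primary annotation, ENSG00000206489 (log2 fold change 1.29 ± 0.14, adjusted p = 0.00125) and ENSG00000277401 (0.54 ± 0.07, adjusted p = 0.00642) were higher in all 4 wells. The sole lower call, ENSG00000277140, named after its values were seen, was lower in wells 1 to 3 and listed at 0 in 4 libraries.

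**Figure D2:**
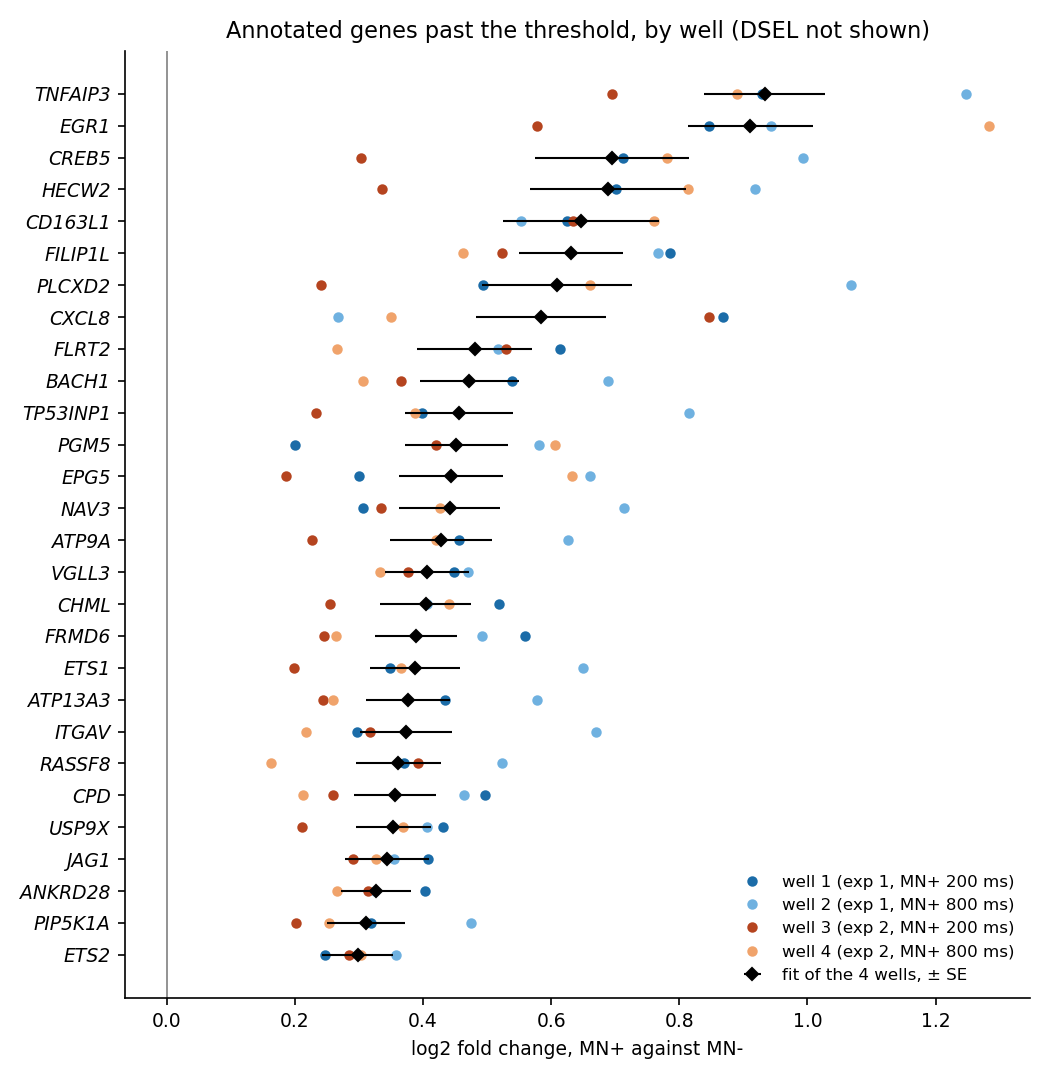
Log2 fold change of MN+ against MN- (horizontal axis) for the 28 annotated genes past the threshold other than DSEL, with 1 point for each well and the fitted value ± SE in black. All the points lie above 0, and for most genes the lowest point is that of well 3 or well 4.

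The size of the change followed transcript length in every well, which bears on all the gene groups below. Genes were placed in 10 classes of about equal size by the length of their canonical transcript (GENCODE 44). The median log2 fold change rose from -0.17 in the shortest class (122 to 1251 bases) to 0.12 in the longest (7761 to 109224 bases). Only 7.96% of the shortest class had a positive value, against 84.0% of the longest. The medians of the longest class exceeded those of the shortest by 0.34, 0.46, 0.13 and 0.23 (log2) in wells 1 to 4. Of the 158 lower genes of the annotated-gene test 101 lay in the shortest class, and 98 of the 270 higher genes lay in the longest. The median canonical transcript measured 7013 bases in the higher genes and 999 bases in the lower genes, against 3382 over all genes with a length. GC content moved the other way, from a median of 0.07 in the class of lowest GC to -0.12 in the class of highest GC, but in well 4 these medians were -0.07 and 0.03. Within genes of GC content above the median the shortest and longest classes still differed, with medians of -0.19 and 0.08.

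An alternative fit gave each library an offset for transcript length and GC content, which left 0.0111 (log2) between the medians of the longest and shortest classes. With the offsets 8 genes passed (0.0755%), all higher. They included EGR1 (log2 fold change 0.93, adjusted p = 0.00905), TNFAIP3 (0.87, adjusted p = 0.00905), FILIP1L (0.52, adjusted p = 0.027), HMOX1, the haem oxygenase of the oxidative stress response (0.35, adjusted p = 0.0238), and both higher identifiers outside the annotation named above. HMOX1 was not among the 35. Whether sorted cells of the conditions differ in their long and short transcripts, or the libraries differ in how these were captured, was not tested.

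**Figure D3:**
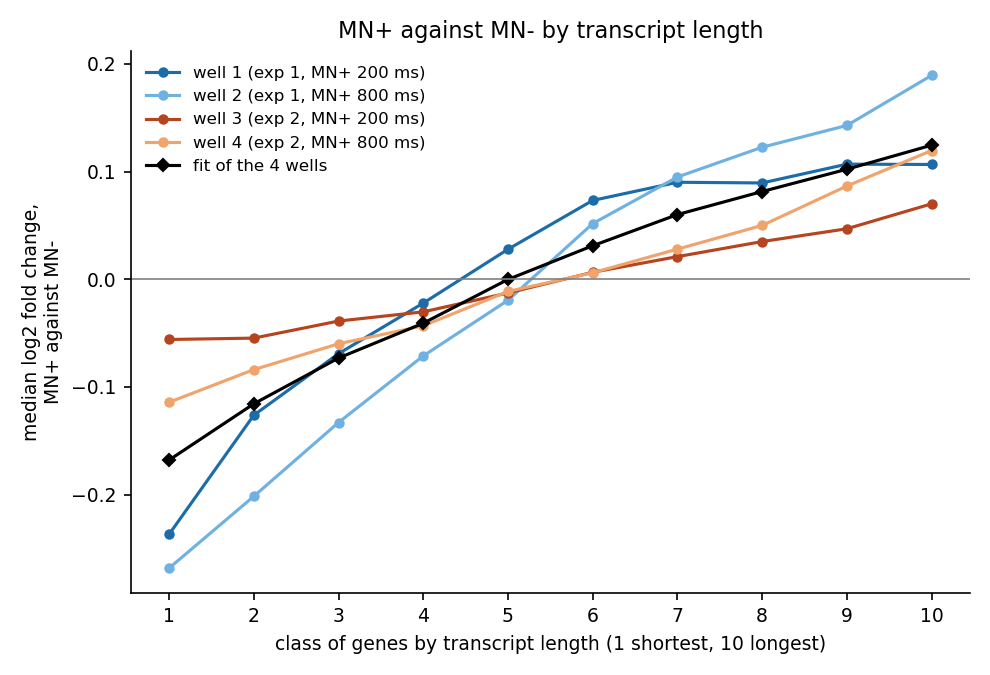
Median log2 fold change of MN+ against MN- (vertical axis) in each of 10 classes of genes by canonical transcript length (horizontal axis, 1 shortest), for each well and for the fit of all 4 wells. All the lines rise from below 0 to above 0, and the slope is steepest in well 2 and shallowest in well 3.

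The p53 targets, genes that the tumour suppressor p53 activates upon DNA damage and other stress, had the highest median of the 23 gene lists. It was 0.19 (log2) over 44 measured genes, against -0.0015 over all genes, and 0.13, 0.37, 0.06 and 0.18 in wells 1 to 4. In MN+ cells 38 of the 44 had a positive fold change and 24 were higher in all 4 wells, against 15.9% of all genes. TP53INP1 alone passed over all identifiers, and 9 rose and 0 fell in the annotated-gene test, where 2.62% of all genes rose and 1.53% fell. These shares are the background for the counts of all the lists that follow. Over all identifiers, members passed only in the p53, NF-kB, immediate early, epithelial to mesenchymal transition and matrix, and autophagy lists. In the lists, genes past over all identifiers are given with that test's adjusted p. Genes past only in the annotated-gene test are given with its adjusted p. Without wells 1, 2, 3 and 4 the 9 calls of the p53 list became 1, 1, 14 and 0. With the length and GC offsets the median was 0.14 and 0 passed, and the median transcript of the list (3367 bases) was near that of all genes.

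TP53INP1, a stress protein that promotes autophagy and death, held 42.3, 34.0, 40.6 and 39.6 CPM in MN- cells and 55.8, 59.9, 47.8 and 51.8 CPM in MN+ cells (log2 fold change 0.46 ± 0.08, adjusted p = 0.0425). MDM2, the ubiquitin ligase that degrades p53, held 179, 106, 112 and 128 CPM in MN- and 205, 194, 126 and 166 CPM in MN+ cells. It was higher by 0.20, 0.88, 0.17 and 0.37 (log2) in wells 1 to 4, with the larger values where MN+ cells had the 800 ms pulse. The difference of its MN effect between pulse arrangements did not pass edgeR's quasi-likelihood test (0.44 ± 0.15, adjusted p = 0.9998). MDM2 passed in the annotated-gene test (0.40 ± 0.09, adjusted p = 0.0349) but not over all identifiers (adjusted p = 0.0656). EDA2R, a death receptor of the TNF receptor family (0.60 ± 0.12, adjusted p = 0.0276), and APAF1, the scaffold of the apoptosome (0.31 ± 0.08, adjusted p = 0.0429), passed in the same way. CDKN1A, the p21 inhibitor of cyclin-dependent kinases, did not pass. Its MN- libraries held 1146, 945, 1101 and 953 CPM and its MN+ libraries 1179, 1346, 1064 and 1244 CPM. The wells in which MN+ cells had the 800 ms pulse gave differences of 0.51 and 0.39, and the others 0.04 and -0.05. The fitted value was 0.22 ± 0.08 (edgeR's quasi-likelihood test, adjusted p = 0.107).

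Of the NF-kB targets, inflammatory and survival genes that this factor activates, 20 of 36 were measured. TNFAIP3 and CXCL8 passed over all identifiers, and 5 rose and 0 fell in the annotated-gene test, with 1, 2, 6 and 1 past the threshold without wells 1, 2, 3 and 4. CYLD, a deubiquitinase that limits NF-kB, held 93.0 to 103 CPM in MN- and 107 to 126 CPM in MN+ cells (0.28 ± 0.06, adjusted p = 0.0349). BIRC2, an inhibitor of apoptosis and ubiquitin ligase of the same pathway, held 122 to 179 and 166 to 207 CPM (0.31 ± 0.07, adjusted p = 0.0349). The list's median was 0.13, with 0.16, 0.12, 0.10 and 0.20 in the wells, and 0.15 with the offsets. The other gene that rose was RELB, an NF-kB subunit.

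The immediate early genes, transcription factors and regulators induced within minutes of a stimulus, gave 2 calls of 29 measured (EGR1 and ETS2) over all identifiers and 4 rises and 0 falls in the annotated-gene test. Without wells 1, 2, 3 and 4, 2, 2, 4 and 1 passed. ATF3, a stress-induced transcription factor, held 9.37, 5.51, 6.37 and 7.01 CPM in MN- and 10.7, 11.3, 8.46 and 13.5 CPM in MN+ cells. Its MN+ value in well 3 was below the MN- value in well 1, so the groups overlapped. The log2 fold change was 0.64 ± 0.14, with an adjusted p of 0.0349 in the annotated-gene test and 0.0595 over all identifiers. ETS2, an Ets-family factor downstream of Ras, rose by a more even 0.25, 0.36, 0.29 and 0.30 in the wells (0.30 ± 0.06, adjusted p = 0.0425). MCL1, a survival protein of the Bcl-2 family, rose by 0.25 ± 0.06 in the annotated-gene test (adjusted p = 0.0429). The list's median was 0.10, and 0.10 with the offsets. ERK feedback genes, which damp the same kinase cascade, gave 3 rises among 16, with SPRED1 at 0.34 ± 0.09 and DUSP6 at 0.24 ± 0.06 (adjusted p = 0.0429 and 0.0447 by edgeR's quasi-likelihood test over annotated genes), and 0, 0, 1 and 0 calls without each well.

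Genes of adhesion, matrix and growth signalling followed. Of 54 measured genes of epithelial to mesenchymal transition (EMT) and extracellular matrix, 9 rose and 1 fell in the annotated-gene test, and 1, ITGAV, passed over all identifiers. Without wells 1, 2, 3 and 4 the calls numbered 0, 0, 13 and 0. ITGAV, the integrin alpha V subunit, held 66.3 to 98.5 CPM in MN- and 105 to 116 CPM in MN+ cells (0.37 ± 0.07, adjusted p = 0.0479). The matrix proteins FN1 (0.29 ± 0.06), FBN2 (0.40 ± 0.08) and COL12A1 (0.28 ± 0.06) rose in the annotated-gene test. The median transcript of this list was 5237 bases, and its median log2 fold change of 0.08 was 0.04 with the offsets, where none passed. What part the length trend has in these rises was not tested. Of 29 TGF-beta pathway genes 3 rose and 1 fell, with the receptor TGFBR1 at 0.28 ± 0.06, the activin antagonist FST at 0.22 ± 0.06 and ID3, an inhibitor of differentiation factors, at -0.29 ± 0.08. Of 22 YAP and TEAD targets 4 rose, among them MYOF, a membrane repair protein (0.25 ± 0.06), and the ligand TGFB2 (0.35 ± 0.08). Some genes were counted in more than 1 list, so the counts of the lists are not independent. TGFB2 was also a rise of the TGF-beta list, and GADD45A of both the p53 and the YAP and TEAD lists. SESN2, BANF1 and TPM2 were likewise shared between lists. The TGF-beta list had 0, 0, 3 and 0 calls and the YAP and TEAD list 0, 0, 5 and 0 calls without each well.

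The response to cytosolic DNA was described by its sensors and by interferon-stimulated genes. Of 23 measured sensing genes 1 rose and 1 fell in the annotated-gene test, which called 4.16% of all genes, and neither passed without wells 1, 2 or 4. NLRP1, an inflammasome sensor, held 22.3 to 31.0 CPM in MN- and 31.3 to 35.8 CPM in MN+ cells (0.40 ± 0.09, adjusted p = 0.0369). BANF1, a DNA-binding protein that limits cGAS and rebuilds the nuclear envelope, fell by 0.26 on the log2 scale (adjusted p = 0.0496), and its transcript is 731 bases. TREX1, the exonuclease that degrades cytosolic DNA, was at -0.27 ± 0.07, and with the offsets at -0.07. Its adjusted p was 0.0517 in the annotated-gene test and 0.0738 over all identifiers. STING1, the adaptor of cGAS, held 108, 120, 118 and 126 CPM in MN- and 102, 103, 118 and 125 CPM in MN+ cells (-0.08 ± 0.06, adjusted p = 0.403 by edgeR's quasi-likelihood test). Of 26 measured interferon-stimulated genes, of 46 in the list, 0 passed in either edgeR test and 0 in limma-voom, against 8 at an unadjusted p under 0.05 and 1 in DESeq2. Their median was 0.04, with 0.10 at most in any well. TRIM22, an antiviral member and a p53 target too, had the smallest p of the list (0.29 ± 0.09). Its adjusted p was 0.0583 in the annotated-gene test and 0.0822 over all identifiers. The rest of the list was below the count minimum of the table and could not be assessed.

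Genes of translation stress were next. Of 32 genes of the integrated stress response, which restores amino acid supply when translation is limited, 5 rose and 0 fell in the annotated-gene test, and 11 were higher and 0 lower in all 4 wells. They included the transporter SLC38A2 (0.23 ± 0.06), the tRNA exporter XPOT (0.25 ± 0.06), the sestrin SESN2 (0.26 ± 0.07) and CTH, an enzyme of cysteine synthesis (0.33 ± 0.09). Their counts without wells 1 to 4 were 0, 0, 4 and 0, and the list's median was 0.06, or -0.05 in well 2 alone. Of 22 endoplasmic reticulum chaperone and unfolded protein genes 1 rose (SEL1L, 0.27 ± 0.06). Of 24 heat shock and chaperonin genes 1 fell, HSPE1, the mitochondrial co-chaperonin, by 0.28 on the log2 scale (adjusted p = 0.0349), and 12 of the 24 were lower in all 4 wells against 20.1% of all genes.

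Lower genes were most numerous among the cytosolic ribosomal and respiratory chain lists, whose transcripts are short. All 78 measured cytosolic ribosomal protein genes had a negative fold change, 76 of them in all 4 wells, and 24 fell in the annotated-gene test. None passed over all identifiers by edgeR's quasi-likelihood test, although 78 had an unadjusted p under 0.05, DESeq2 called 68 and limma-voom 0. Without wells 1, 2, 3 and 4 the count of 24 became 0, 0, 52 and 0. RPS9 held 93.6, 115, 120 and 128 CPM in MN- and 68.3, 73.0, 111 and 114 CPM in MN+ cells (-0.35 ± 0.08, adjusted p = 0.0349). Its gap was larger in experiment 1 than in experiment 2, but this difference did not pass the test between experiments. RPL35 fell by 0.28 (adjusted p = 0.0369). Their median transcript measured 782 bases, and the list's median of -0.21 became -0.09 with the offsets, where all 78 stayed negative and 0 passed. The medians by well were -0.33, -0.30, -0.07 and -0.15. Mitochondrial ribosomal proteins gave 4 falls of 75, led by MRPS12 (-0.32 ± 0.08). Nuclear-encoded respiratory chain genes gave 10 falls of 76, among them CYC1 of complex III (-0.26 ± 0.06) and NDUFS7 of complex I (-0.27 ± 0.07). Both lists had a median of -0.16, which became -0.05 with the offsets, and 0 calls without well 1, 2 or 4. The 13 mitochondrially encoded genes had 0 calls, also at an unadjusted p under 0.05 and in DESeq2 and limma-voom. MT-CO1 ranged from 4114 to 8591 CPM in MN- and from 3783 to 6772 CPM in MN+ cells, mostly between experiments.

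Cell cycle genes gave calls in both directions. Of 77 G2 and mitosis genes 2 rose and 8 fell in the annotated-gene test (0, 2, 14 and 0 calls without each well), with a median of -0.04, and 0.05 in well 3. PTTG1, the securin that holds back separase, held 341 to 372 CPM in MN- and 274 to 312 CPM in MN+ cells (-0.27 ± 0.06, adjusted p = 0.0349). CDC20, an activator of the anaphase-promoting complex, fell by 0.32 (adjusted p = 0.0427). The 2 that rose were KNTC1, a kinetochore protein (0.29 ± 0.06), and ANAPC1, a subunit of the same complex (0.29 ± 0.06), whose transcripts of 6974 and 7762 bases are longer than those of PTTG1 and CDC20 (715 and 1649). Of 61 DNA replication and G1/S genes 1 rose (ATAD2) and 2 fell (UNG, a uracil glycosylase, by 0.33, and GINS2, a helicase subunit, by 0.27), with 0, 0, 5 and 0 calls without each well. Those 3 calls of 61 are near the 4.16% called over all annotated genes. The list's median was -0.07, or -0.05 with the offsets, and 0.01 in well 1. Of the 61 genes 46 had a negative fold change. In all 4 wells 16 were lower and 3 higher, against 20.1% and 15.9% of all genes.

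In the remaining lists between 0 and 3 members passed, against 4.16% of all annotated genes. Of 34 genes of the lamina, nuclear envelope and ESCRT-III, the machinery that builds and repairs the envelope, 2 rose and 1 fell. NEMP1, an inner nuclear membrane protein, held 53 to 55.1 CPM in MN- and 61.9 to 68.7 CPM in MN+ cells (0.27 ± 0.06, adjusted p = 0.0349), and SYNE1, a nesprin that links the envelope to the cytoskeleton, rose by 0.27 ± 0.07. The list's median was 0.01. Of 46 autophagy and lysosome genes 3 rose, and EPG5, a tether of autophagosomes and lysosomes, also passed over all identifiers (0.44 ± 0.08, adjusted p = 0.0425). Of 30 SRF-driven actin genes TPM2 and PFN1 fell, both by 0.27. In glycolysis and hypoxia (26) and in cholesterol and fatty acid synthesis (29) 0 passed by edgeR, against 6 and 9 at an unadjusted p under 0.05, 1 and 3 in DESeq2 and 0 in limma-voom. Without wells 1, 2, 3 and 4 the annotated-gene test called 0, 1, 3 and 0 members of the envelope list. For the autophagy list it called 1, 0, 4 and 0. In the other lists of this paragraph 0 passed without well 1, 2 or 4.

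**Figure D4:**
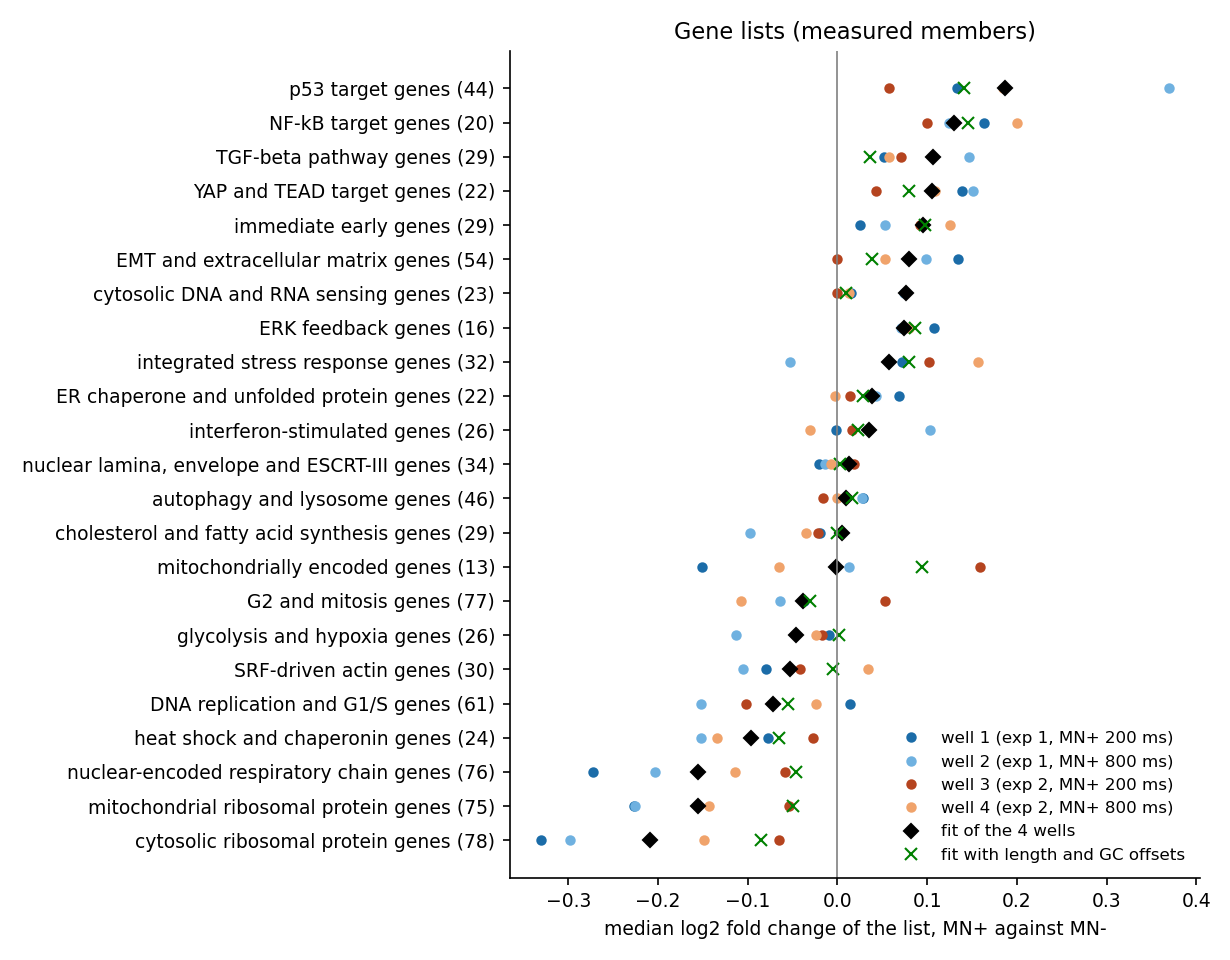
Median log2 fold change of MN+ against MN- (horizontal axis) for 23 gene lists, with the number of measured members in brackets, for each well, for the fit of all wells and for the fit with length and GC offsets. The p53 and NF-kB targets lie above 0 in all 4 wells, and the ribosomal and respiratory lists lie below 0, nearer to 0 with the offsets.

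The MN effect was then set beside the effect of the drug itself, Mps1i against DMSO, and that of micronucleus rupture, each from libraries of its own. Mps1i treatment changed 2593 of 10577 genes (24.5%, with 12.7% higher and 11.8% lower) in 8 libraries. Rupture+ against rupture- cells differed in 15 of 9461 (0.159%, with 0.116% higher and 0.0423% lower) in 6 libraries. Both tests were run over all identifiers only, unlike the annotated-gene test. The Mps1i test counted libraries of the same experiment as separate replicates, although the paper describes these as technical replicates. The 2593 calls therefore rest on fewer independent experiments than the 8 libraries. Of the 35 genes past over all identifiers, 34 were measured with Mps1i and 11 passed there in the same direction. With rupture 33 were measured and 4 passed in the same direction. Of the 428 genes of the annotated-gene test, 108 also passed in the same direction with Mps1i, which is 25.2% of the 428 and 4.20% of the 2571 drug-responsive genes measured here. Another 26 of the higher genes passed as lower with Mps1i and 5 of the lower genes as higher, and the higher genes had a median log2 fold change of 0.03 with the drug. For rupture the overlap was 6 genes, 1.40% of the 428 and 42.9% of the 14 rupture-responsive genes measured here. The 6 were ATF3, CREB5, CTH, EGR1, FILIP1L and TNFAIP3, all higher in each comparison.

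EGR1 had a log2 fold change of 0.91 ± 0.10 with micronuclei, 1.70 ± 0.21 with Mps1i and 1.11 ± 0.10 with rupture. TNFAIP3 had 0.93 ± 0.09, 0.91 ± 0.13 and 0.85 ± 0.10. FILIP1L had 0.63 ± 0.08, 0.82 ± 0.07 and 0.87 ± 0.10. For these 3 genes no difference between the MN effect and either other effect passed the threshold, with differences from Mps1i of -0.80 ± 0.25, 0.02 ± 0.17 and -0.19 ± 0.10 (adjusted p = 0.065, 0.96 and 0.24 in 1 edgeR fit of the 3 tables). The differences from rupture were -0.21 ± 0.26, 0.07 ± 0.18 and -0.26 ± 0.11.

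Across 9431 genes measured in all 3 tables, the MN effect differed from the Mps1i effect for 690 (7.32%), 365 with the MN effect higher (3.87%) and 325 with it lower (3.45%). The genes named next had the lower MN effect. ACTA2, smooth muscle actin, had a log2 fold change of -0.01 ± 0.06 with micronuclei and of 0.99 ± 0.06 with the drug. DDIT4, a stress-induced inhibitor of mTORC1, had 0.10 ± 0.08 and 1.15 ± 0.04. The small heat shock protein HSPB8 had 0.16 ± 0.07 and 1.09 ± 0.07, and the lipase ABHD4 had 0.17 ± 0.07 and 0.99 ± 0.05. For the p53 targets 17 of 39 had a lower and 1 a higher MN than Mps1i effect. CDKN1A is among them, at 0.22 ± 0.08 against 1.06 ± 0.09 (difference -0.84 ± 0.14, adjusted p = 0.0025). For the G2 and mitosis genes 43 of 75 had a higher and 0 a lower MN effect, beside medians of -0.04 with micronuclei and -0.36 with the drug. Of the integrated stress response genes 9 of 30 had a lower MN effect and 0 a higher one. With no replicate block the 690 became 29. The fit of the 3 tables also counted Mps1i libraries of the same experiment as separate replicates. The 690 calls therefore rest on fewer independent Mps1i experiments than libraries.

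The MN effect differed from the rupture effect for 3 of 9431 genes (0.0318%), each with the lower MN effect, and with no block for 0, against 1458 and 461 at an unadjusted p under 0.05. TSC22D1, a leucine zipper factor induced by TGF-beta, had a log2 fold change of 0.07 ± 0.06 with micronuclei and of 0.59 ± 0.09 with rupture (adjusted p = 0.0062). BHLHE40, a circadian and stress-regulated repressor, had 0.11 ± 0.07 and 0.64 ± 0.09 (adjusted p = 0.045). GEM, a small GTPase of the Rad family, had -0.10 ± 0.09 and 0.62 ± 0.12 (adjusted p = 0.045). Rupture was read in cells held at a shared cell cycle stage before the drug, a step that the MN wells did not have, and its pulses were not reversed in the study's methods. Synchrony, pulse length and class therefore cannot be told apart in these differences.

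**Figure D5:**
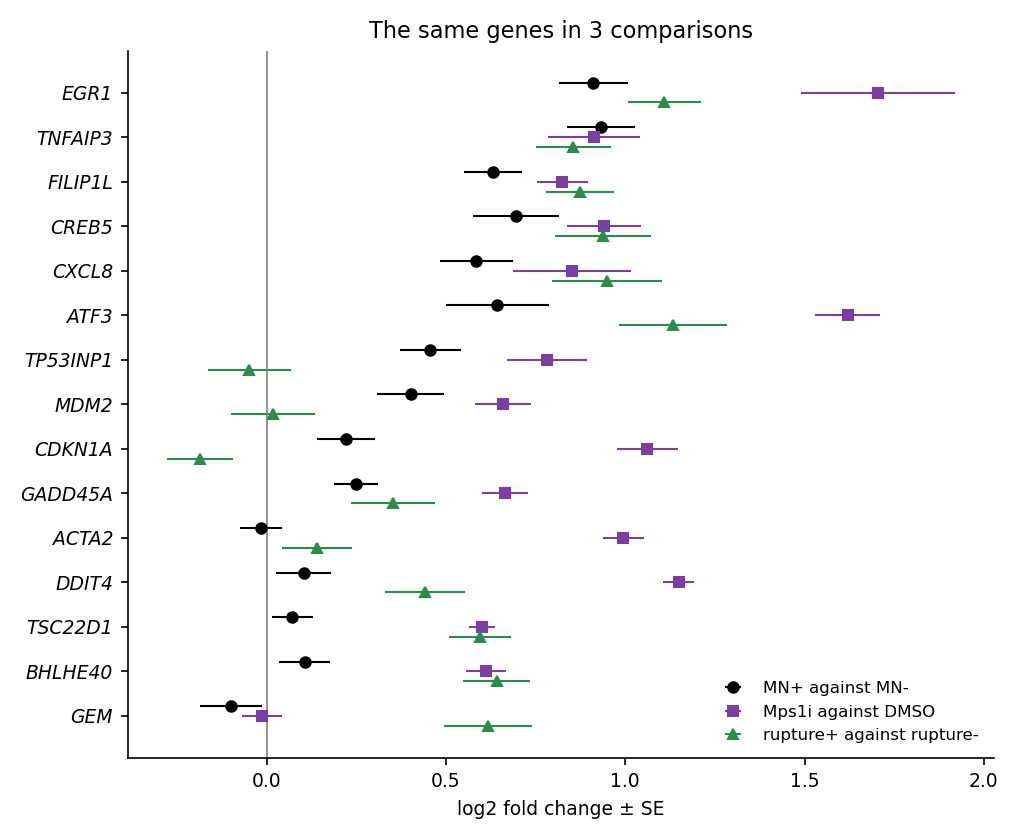
Log2 fold change ± SE (horizontal axis) of 15 genes in MN+ against MN- (circles), Mps1i against DMSO (squares) and rupture+ against rupture- (triangles). EGR1, TNFAIP3 and FILIP1L are above 0 in all 3, while the circles of ACTA2, DDIT4, TSC22D1 and BHLHE40 lie between -0.01 and 0.11, left of their squares and triangles.

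Between experiments, the MN effect differed for 10 of 10594 genes (0.0944%, with 0.0661% higher and 0.0283% lower in experiment 2), and at an unadjusted p under 0.05 for 1001. The effect of EGR1, TNFAIP3, FILIP1L and CXCL8 did not pass this test. Several of the 10 were listed at 0 in some libraries, such as CTSO, a lysosomal protease, with 0 CPM in 3 of the 4 libraries of experiment 2. H3P6, a histone H3 pseudogene, held 11.5, 39.5, 44.7 and 53.6 CPM in MN- and 4.49, 9.66, 43.7 and 44.8 CPM in MN+ cells, with differences of -1.36, -2.03, -0.03 and -0.26 (log2) in wells 1 to 4. Reads of such a copy can come from near-identical histone genes.

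Medians by chromosome were small. Chromosome 19 had the lowest (-0.10 over 634 genes, median transcript 2538 bases) and chromosome 13 the highest (0.07 over 180 genes, 3946 bases). With the length and GC offsets they were -0.01 and 0.02. Pooled libraries cannot show which chromosome a given cell had gained or lost.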

How the data were processed

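RNA of sorted cells was amplified with SMART-Seq v4, tagmented and sequenced in pairs. The authors quantified transcripts with Salmon (submitters' notes: Salmon 1.2, hg38), with GC-bias correction, imported them with tximeta, kept genes of at least 700 counts in at least 2 samples and deposited estimated counts per gene as whole numbers. They were tested without length offsets, except in the fits said to have them. Labels name 11 samples for the 8 libraries, because 3 libraries of experiment 2 are listed in 2 parts. Their single columns were taken as sums of the parts, which the sources used here do not state.

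Counts were used as deposited, with TMM normalization. edgeR 4.0.16 (R 4.3.3) quasi-likelihood tests took the well as block for the MN libraries, and genes passed at a Benjamini-Hochberg adjusted p under 0.05. The Mps1i and rupture libraries took the experiment as block, also in the fit of 3 tables. All p-values printed without another name are from these tests. Same-well libraries deviated together from their group means (r = 0.623, 0.335, 0.659 and 0.482 across genes), and the labels' dates and pulses, with the methods, give the pairing. MN+ and MN- libraries of different wells in 1 experiment also correlated (r = 0.430 and -0.0133 in experiment 1, 0.509 and 0.366 in experiment 2), so these values do not separate the well from the experiment. In the fit of 3 tables, 22 libraries shared 1 estimate of the spread. CPM values are scaled by TMM. Lengths, GC content and positions are those of GENCODE 44 on hg38, matched for 10300 of 10594 identifiers.

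The members and gene lists were chosen with earlier results of these data known. The genes named were up to 12 in each direction by size of fold change among those past the threshold with 1 sign in all 4 wells. To these were added up to 4 members of each list by adjusted p, up to 6 by adjusted p for each difference between effects, and EGR1, TNFAIP3, ATF3, CDKN1A, CGAS and STING1. Identifiers with no gene name were limited to 2 in each direction. HMOX1, RELB, H4C3 and the lower identifier were chosen after their values were seen. The result of 1 gene that the rule names is not reported here. Tests were checked on simulated counts. Alternatives included DESeq2 1.42.0, limma-voom (limma 3.58.1), other scalings, filters and blocks, and leaving out each well. Libraries held 47919780 to 136865912 counts. Purity of the sorts was not analysed here.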

Additional observations from a re-analysis of the deposited data

Results flagged for a closer look

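The screen took 154 sets of 4 libraries, for each named gene and a few measures of whole libraries, such as the mitochondrial share, in each condition. Of these sets 8 had a library farther from the rest than Dixon's 95% critical value allows, and chance alone does so for about 1 set in 20. Of the 8, all in named genes, 5 were in the MN- 800 ms library of experiment 1, which was high for CREB5 (11.2 CPM), ENSG00000206489 (36.9 CPM) and GADD45A (168 CPM) and low for BANF1 (144 CPM) and TPM2 (605 CPM). The MN- 200 ms library of that experiment was low for PLCXD2 (8.47 CPM), and its MN+ 200 ms library was high for UNG (36.6 CPM) and for ENSG00000277140 (3.94 CPM).

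The MN effect differed between experiments, by the interaction term of an edgeR fit, for 10 identifiers. The difference (experiment 2 minus experiment 1, log2) was 13.2 for ITGB1P1, 12.5 for BTBD7, 10.4 for CTSO, 1.59 for H3P6, 1.40 for ENSG00000276358, 1.01 for H4C3 and 1.41 for ENSG00000273780. It was -10.4 for ENSG00000273217, -11.2 for ENSG00000282017 and -8.46 for ENSG00000277140. Differences above 8 in size come from libraries listed at 0 and depend on the prior count. DESeq2 called 19 identifiers and gave no adjusted p for 7189 genes, so its calls cannot be set against the 10.

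The MN effect was lower than the Mps1i effect, by the same kind of term, for ACTA2 (-1.01), HSPB8 (-0.93), DDIT4 (-1.04), ABHD4 (-0.83) and TSC22D1 (-0.53). It was lower than the rupture effect for TSC22D1 (-0.53), BHLHE40 (-0.55) and GEM (-0.73). All are log2 differences.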

How the results depend on the processing

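Against 35 calls over all identifiers, 7 of them list members, edgeR called 0 genes and 0 list members with no replicate block (789 at an unadjusted p under 0.05), 1 and 1 with the experiment as block, 91 and 18 with pulse length added, 92 and 18 with upper-quartile scaling, and 936 and 204 among genes of at least 2000 counts on average. DESeq2 called 1164 and 238, with 47.9% higher in MN+ cells against 97.1% of the 35, limma-voom 39 and 8, and DESeq2 size factors 30 and 6. Experiment 1 alone gave 1451 and 252, experiment 2 alone 108 and 22, and libraries summed over pulses 822 and 128. Leaving out 1 well gave 5 (without well 4) to 252 (without well 3) genes and 2 to 74 list members. The offsets for length and GC gave 8 and 2, and lowered the difference between the longest and shortest transcripts from 0.292 to 0.0111. The annotated genes only gave 428 and 102. Settings added after seeing the data were the annotated genes without 1 well (3 to 758 and 2 to 177, with 12 and 34 genes without wells 1 and 2), the annotated genes with offsets (4 and 2, difference 0.0109) and robust edgeR (893 and 182). The causes of these moves were not tested.

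The difference of the MN effect between experiments gave 10 calls, or 19 with DESeq2, which gave 7189 genes no adjusted p. The difference from Mps1i gave 690, or 29 with no replicate block, and that from rupture 3, or 0.

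Of 74 named genes, 67 kept their direction in every alternative. The other 7, none past the threshold in the fit of all wells, changed it. With the offsets STING1 was at 0.0099, ACTA2 at 0.1081 and TSC22D1 at -0.0244, and with annotated genes and offsets they were at 0.0091, 0.1071 and -0.0253. In experiment 1 alone ACTA2 was at 0.0089 and DDIT4 at -0.0460. In experiment 2 alone STING1 was at 0.0075, MT-CO1 at 0.1706, ITGB1P1 at 0.3947 and GEM at 0.0151. Leaving out 1 well, ACTA2 ranged from -0.0487 to 0.0240 and ITGB1P1 from -2.3679 to 0.3937, and over annotated genes ACTA2 0.0094 to 0.0265 and ITGB1P1 0.3944.

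Groups of 4 wells, 2 experiments and sorted populations whose purity was not analysed here limit these comparisons, and genes below the count minimum could not be assessed.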
